A study of Homo sapiens with 20 samples.

Results

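The genomic windows of 8 receptor tyrosine kinase genes, FGFR1, FGFR2, PDGFRA, KIT, PDGFRB, MET, EGFR and IGF1R, were examined for H3K27ac, the acetyl mark on a lysine of histone H3 that active promoters and enhancers carry. The members were chosen by position: every deposited peak overlapping the window of a gene in hg19 was taken. The 8 windows span 2.43 Mb and held 463, 372, 568 and 584 peaks in the 4 H3K27ac libraries, out of 458811 peaks in all. The windows are chr8:38220001-38400000 for FGFR1, chr10:123150001-123550000 for FGFR2, chr4:54900001-55250000 for PDGFRA, chr4:55450001-55700000 for KIT, chr5:149450001-149600000 for PDGFRB, chr7:116200001-116500000 for MET, chr7:55000001-55350000 for EGFR and chr15:99100001-99550000 for IGF1R.

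The study used G401, an established human rhabdoid tumour cell line with the genotype SMARCB1(-/-), which all groups share. Doxycycline induced either GFP, as the control, or SMARCB1, and chromatin was cut with MNase before immunoprecipitation. Of the 20 samples, the 2 GFP and 2 SMARCB1 libraries of H3K27ac were analysed here, while those of H3K4me3, H3K4me1, SMARCA4 and input were not analysed here. The comparison asks how acetylation differs once the missing subunit is made. All libraries come from 1 cell line, and no label says whether the replicates were separate cultures, so p-values measure the spread between these libraries, which may be technical.

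Receptor tyrosine kinases sit in the cell membrane, bind a growth factor outside the cell and, once paired, phosphorylate each other's tails, which recruits adaptors that start the RAS-ERK and PI3K-AKT cascades. SMARCB1 is a core subunit of SWI/SNF complexes, which move nucleosomes and are needed at many enhancers. Rhabdoid tumours are known for growth factor receptor signalling through FGFR and PDGFR family members, and several of their lines are sensitive to inhibitors of these kinases.

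The promoters of 4 members are shown because the results turn on the windows of EGFR and PDGFRA and on the near absence of peaks in those of MET and KIT. RefSeq promoters of GRCh38.p14 were taken for 7 of the 8 members, with 13 starts in all. Each sequence holds the 250 bases before the first listed start, on the + strand, 5′ to 3′. Capitals mark every match to GGGCGG (GC box), TGANTCA (AP-1), GGAATG (TEAD) or CCGGAAGT (ETS) on either strand, and no matches overlapped in these 4 sequences. The positions are chr7:55018767-55019016 for EGFR, chr4:54229043-54229292 for PDGFRA, chr7:116671946-116672195 for MET and chr4:54657707-54657956 for KIT, in GRCh38.p14, and are not to be set against the hg19 positions of the peaks.
EGFR: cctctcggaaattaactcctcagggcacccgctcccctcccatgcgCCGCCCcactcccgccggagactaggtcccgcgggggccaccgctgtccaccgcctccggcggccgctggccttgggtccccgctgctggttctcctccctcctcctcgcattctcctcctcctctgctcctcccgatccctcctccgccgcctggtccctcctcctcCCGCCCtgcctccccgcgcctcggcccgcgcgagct
PDGFRA: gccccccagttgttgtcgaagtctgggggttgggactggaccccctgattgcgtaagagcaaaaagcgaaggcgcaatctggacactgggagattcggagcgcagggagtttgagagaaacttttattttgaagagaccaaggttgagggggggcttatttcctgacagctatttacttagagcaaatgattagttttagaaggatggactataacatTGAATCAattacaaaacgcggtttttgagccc
MET: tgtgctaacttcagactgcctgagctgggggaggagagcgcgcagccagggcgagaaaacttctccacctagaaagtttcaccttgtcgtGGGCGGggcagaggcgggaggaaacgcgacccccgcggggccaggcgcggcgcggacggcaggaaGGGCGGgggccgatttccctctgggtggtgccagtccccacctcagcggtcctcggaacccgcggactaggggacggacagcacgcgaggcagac
KIT: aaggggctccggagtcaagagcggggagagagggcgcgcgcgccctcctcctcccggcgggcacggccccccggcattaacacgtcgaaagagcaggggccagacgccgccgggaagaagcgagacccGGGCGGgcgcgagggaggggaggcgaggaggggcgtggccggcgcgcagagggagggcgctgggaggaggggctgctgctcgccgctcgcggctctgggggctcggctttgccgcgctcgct

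The EGFR promoter held 2 GC boxes, as did that of MET, and the KIT promoter held 1. In PDGFRA the first start had no GC box and 1 AP-1 match, while its second listed start, not shown, had 2 GC boxes. The GC content of the printed bases was 73.6% in EGFR, 46.8% in PDGFRA, 68.4% in MET and 76.4% in KIT, against a median of 58% over 35116 RefSeq promoters of the same length. Of these 4 printed starts, that of PDGFRA was below the median. The second PDGFRA start had 64% GC. EGFR also has a second listed start, not shown, with 38.8% GC, no GC box, 2 AP-1 matches and 1 TEAD match. FGFR1 was left out of the 13 member starts, so the counts that follow do not cover every member. A GC box was present in 8 of the 13 member starts and in 42.6% of all promoters. AP-1 matches were present in 2 of 13 and 6.57%, and TEAD matches in 3 of 13 and 11.9%. No member start held the ETS letters, which 3.42% of all promoters did.

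The deposited lists held 98251 and 79555 peaks for GFP and 145533 and 135472 for SMARCB1, covering 88.8, 82.3, 122 and 101 Mb. Read totals are not part of the lists. The genome-wide background was read from the steps between fold values. It was 1.82 and 3.74 fragments in GFP replicates 1 and 2 and 4.09 and 3.89 in SMARCB1 replicates 1 and 2. The value of SMARCB1 replicate 1 is after scaling by 0.855, and before scaling it was 4.79. The background was lowest in GFP replicate 1 and closest across groups in the replicates numbered 2, and it is no direct count of reads. At the position of the SMARCB1 locus on chromosome 22, both GFP lists held 0 peaks and the SMARCB1 lists 8 and 7. Each was between 203 and 402 bp wide. The lists do not tell the induced SMARCB1 sequence from the native locus. The source of these peaks was not tested, and they are not read as acetylation of the native locus. With more of the genome under peaks after SMARCB1 induction, a window is read against the share of other windows that moved the same way.

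The quantity compared was covered length, the length of a window that lies under the peaks of a library. It was longer with SMARCB1 than with GFP in 5 windows without overlap between the groups, namely EGFR, IGF1R, FGFR2, PDGFRB and FGFR1, and shorter in 1, PDGFRA. Among 5918 genome tiles of 250 kb with a peak, 53.8% were likewise higher and 18.1% lower without overlap. A tile with a peak was thus more often higher than lower. Permuting the libraries exactly, two-sided, gave p = 0.333 for each of the 6 windows, the smallest that 2 against 2 libraries allow. A limma fit on log2(covered bp per kb + 5) over 4840 tiles and windows, which shares the spread between libraries across all of them, tested 6 of the 8 windows. EGFR, IGF1R and FGFR2 rose and PDGFRA fell, against a background of 41.8% of tested tiles called higher and 7.75% called lower at a Benjamini-Hochberg adjusted p below 0.05. The median log2 difference was 0.27 over the 6 tested windows and 0.34 over all those tested. When each library was centred on its median over tiles, 1 window was called higher (EGFR) and 3 lower (PDGFRA, FGFR1 and PDGFRB), and the share of all calls that were higher went from 84.4% to 34.0%. That centring moved the median of all tiles from 0.34 to -0.30.

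**Figure D1:**
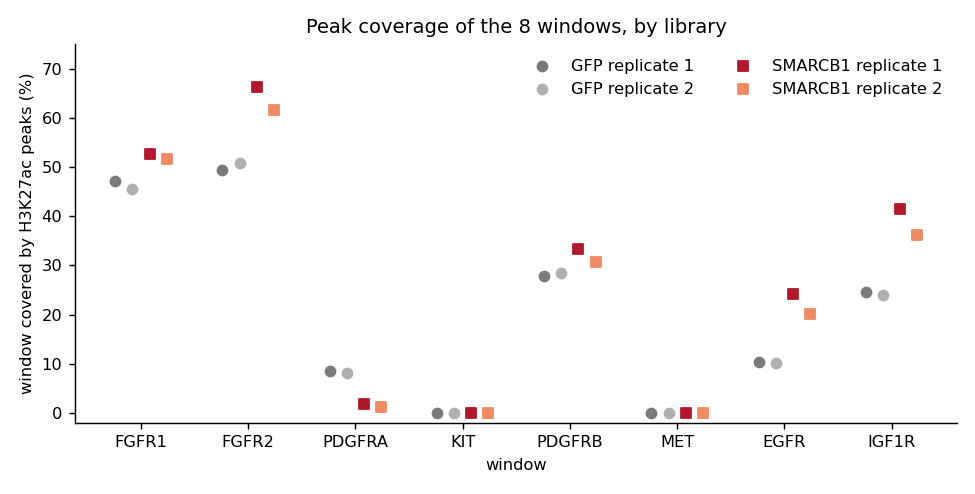
Share of each window covered by H3K27ac peaks (y axis, %) in the 8 windows (x axis). Each point is 1 library, with grey circles for GFP and red squares for SMARCB1. SMARCB1 libraries sit above GFP libraries in EGFR, IGF1R, FGFR2, FGFR1 and PDGFRB, below them in PDGFRA, and all 4 are at or near 0 in KIT and MET.

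PDGFRA encodes the alpha receptor for platelet-derived growth factors, a driver of mesenchymal growth. Peaks covered 29.7 and 28.1 kb of its window in the GFP libraries and 6.21 and 4.50 kb in the SMARCB1 libraries. The groups lay far apart, with the lower GFP library 21.9 kb above the higher SMARCB1 library. The mean fell from 28.9 ± 1.17 kb (SD, n = 2) to 5.36 ± 1.21 kb (SD, n = 2), a ratio of 0.185. In limma the log2 difference was -2.12 (SE 0.20, adjusted p = 2.22e-06), and 1.45% of all tested tiles and windows had a lower one. The window was called lower under all 10 alternative settings, with log2 differences from -2.76 to -1.94. The ratio was 0.209 between the replicates numbered 1 and 0.160 between those numbered 2.

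The loss in the PDGFRA window was complete in some stretches and partial in others. In its far stretch, no SMARCB1 peak was left from the bin that begins at 55080001 to the end of the last GFP peak at 55100541. The bin from 55090001 to 55100000 was covered over 6867 and 7114 bp with GFP and over 0 bp in both SMARCB1 libraries (limma adjusted p = 0.00197). Its neighbours on either side were also listed at 0 in both SMARCB1 libraries and passed the same test, with adjusted p = 0.00422 and 0.00528. The lost region with the highest fold was chr4:55090346-55093081, where the highest folds over background were 13.0 and 8.94 in the GFP libraries, and the nearest SMARCB1 peak lay 57981 bp away. Just beyond it, from 55093224 to 55100541, the GFP lists held 5 and 6 peaks that the authors' stitched tables leave out. Those tables are limited to peaks away from transcription start sites, per their headers, although the reason for leaving out a given peak is not stated. The SMARCB1 lists had no peak in that stretch.

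In the other stretch of the PDGFRA window, acetylation shrank and did not vanish. The widest region shared by all 4 libraries, chr4:54964821-54971857, was covered over 6376 and 6994 bp with GFP and over 1680 and 705 bp with SMARCB1. Its highest fold was 14.6 and 10.5 with GFP and 4.06 and 3.27 with SMARCB1, each read within its own list. The highest peak of the window lay elsewhere in every library, beginning between 54927663 and 54929529, with folds of 22.7 and 13.9 for GFP and 14.3 and 11.7 for SMARCB1. In GRCh38 gene order CHIC2 and GSX2 come before PDGFRA, and KIT and KDR follow it, so a window of this size can hold peaks of neighbouring genes. Of 9 tested bins of 10 kb, 7 were called lower and 0 higher, and in 4 of those 7 neither SMARCB1 library had a peak. Over the genome 7.9% of 37964 tested bins were called lower and 29.8% higher. Leaving out 1 library at a time left fewer bins called lower, and the genome's share of lower bins fell too.

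Merged regions, in which overlapping peaks of the 4 libraries are joined, showed the same contrast. A region was lost if both GFP lists and no SMARCB1 list had a peak in it, and gained in the opposite case. In the PDGFRA window 10 of 30 regions (33.3%) were lost and 1 (3.33%) was gained, while over the genome 3.94% of 167933 regions were lost and 17.5% were gained. Without GFP replicate 2 the lost regions numbered 24 of 33, and 15.3% of the genome's regions were then lost. Of the 25.6 kb covered in both GFP libraries, 13.0% was also covered in both SMARCB1 libraries. No region of this window carried the authors' super-enhancer mark in any library.

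EGFR encodes the epidermal growth factor receptor, the founding member of the ERBB family. Peaks covered 36.5 and 35.7 kb of its window in the GFP libraries and 84.4 and 70.2 kb in the SMARCB1 libraries. Even the lower SMARCB1 value was 33.7 kb above the higher GFP value, and the 2 SMARCB1 libraries differed more from each other than the GFP libraries did. The mean rose from 36.1 ± 0.563 kb to 77.3 ± 9.98 kb (SD, n = 2 each), a ratio of 2.14. With equal lists the ratio was 1.63 and the difference 21.9 kb, and at a -log10 q of 5 or more they were 1.61 and 19.5 kb, against 41.2 kb with the full lists. In limma the log2 difference was 1.06 (SE 0.18, adjusted p = 0.000304), and 76.8% of tested tiles had a lower one. This window was called higher under all 10 alternative settings, with log2 differences from 0.42 to 1.19. Its log2 difference was smallest, 0.42, after median centring.

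The longer coverage in the EGFR window came from many narrow peaks. The lists held 41 and 27 peaks there with GFP and 134 and 120 with SMARCB1. Peaks averaged 890 and 1322 bp in width in the GFP lists and 630 and 585 bp in the SMARCB1 lists, so the peaks added were narrower on average than those already present. Of 135 merged regions, 41 (30.4%) were gained and 1 was lost, beside 17.5% and 3.94% over the genome. Only 8 of the 135 were shared by all 4 libraries. Gained regions had a median width of 546 bp and shared regions one of 2312 bp. The count of gained regions was 16 of 85 when all lists were shortened to the same number of strongest peaks and 15 of 66 when peaks needed a -log10 q of 5 or more. It was 76 of 113 without SMARCB1 replicate 1 and 91 of 128 without SMARCB1 replicate 2, since 1 SMARCB1 library then had to hold the peak, and the genome's shares were then 41.5% and 47.7%. The genome's share of gained regions was 11.5% with equal lists and 15.1% at the stricter threshold. With peaks within 1 kb joined, 5 of 31 regions of this window were gained, beside 14.1% over the genome. The higher share of this window thus depends on counting closely spaced peaks apart.

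Within the EGFR window the stretches covered in GFP cells were mostly covered with SMARCB1 as well, and further peaks lay in the gaps between them. The widest shared region, chr7:55127945-55147638, was covered over 17134 and 18608 bp with GFP and over 18642 and 17536 bp with SMARCB1, and the groups overlapped there. Its highest fold was 18.8 and 12.9 with GFP and 10.9 and 10.03 with SMARCB1, each within its own list. Of the 28.8 kb covered in both GFP libraries, 88.3% was also covered in both SMARCB1 libraries. A further 22.4 kb was covered in both SMARCB1 libraries and in no GFP library. Both GFP libraries had peaks in 13 of the 35 bins of 10 kb, with a longest unbroken run of 70 kb. Both SMARCB1 libraries had peaks in 21 bins, with a longest run of 190 kb. Among 21 tested bins, 15 were called higher and 0 lower, while 29.8% of the genome's bins were called higher. In 6 of the 15 no GFP library had a peak. With equal lists 5 of 18 were called higher, beside 22.1% of the genome's bins, and with the stricter q 4 of 18, beside 23.9%. The count was also smaller whichever library was left out, as was the genome's share.

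New peaks also lay well before the first GFP peak of the EGFR window. Ranked by the lower of the SMARCB1 folds, the first gained region was chr7:55035435-55036053. Its folds were 5.74 and 5.32 in the SMARCB1 libraries, and the nearest GFP peak lay 49478 bp away. The first SMARCB1 peaks began at 55011487 and 55011641, and the first GFP peaks at 55085532 and 55086394. At the other end, the bin from 55250001 to 55260000 was covered over 225 and 228 bp with GFP and over 6988 and 5528 bp with SMARCB1 (limma adjusted p = 0.0023). In GRCh38 order SEC61G comes before EGFR and LANCL2 after it. The authors marked 1, 0, 1 and 2 stitched regions of the window as super-enhancers in GFP replicates 1 and 2 and SMARCB1 replicates 1 and 2. The whole tables held 910, 649, 2003 and 1521 marks, which is 3.37%, 3.35%, 5.55% and 5.02% of their regions. Only 107, 92, 137 and 138 distinct region IDs stand in these tables, and regions with the same ID share signal values. All marks given here were counted as deposited, and how they were ranked was not checked. The marked region was 49.8 kb long and joined 24 peaks in GFP replicate 1. It was 181 kb long with 118 peaks in SMARCB1 replicate 1. In SMARCB1 replicate 2 the marked regions were 81.9 and 79.7 kb long, and in GFP replicate 2 a region of 52.6 kb carried no mark.

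**Figure D2:**
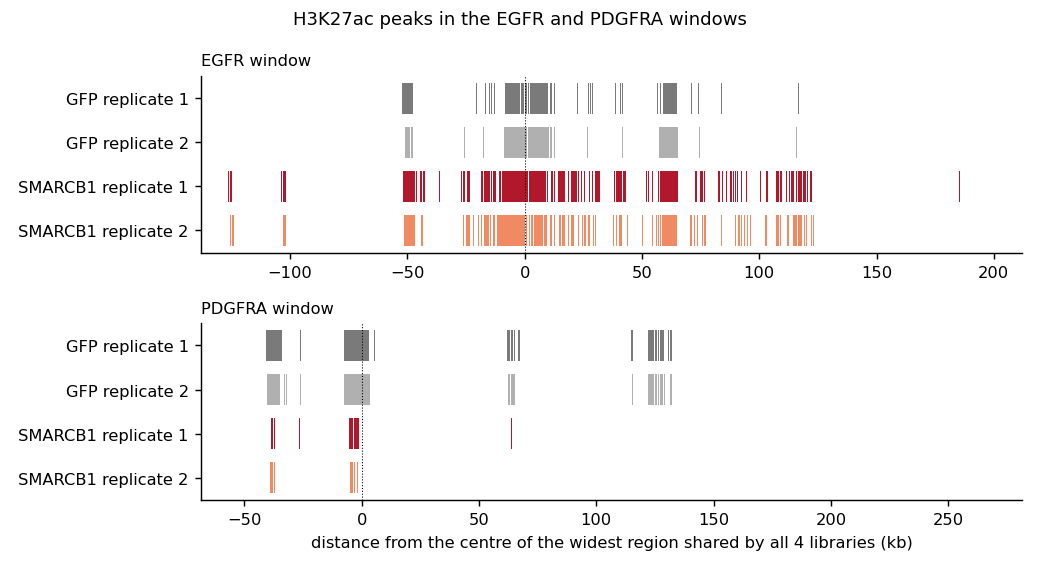
Peaks of each library (rows, bars to scale) in the EGFR and PDGFRA windows against the distance in kb from the centre of the widest region shared by all 4 libraries (dotted line). In the EGFR window the SMARCB1 rows hold 134 and 120 peaks against 41 and 27, and in the PDGFRA window 13 and 10 against 31 and 20.

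IGF1R encodes the receptor for insulin-like growth factors. Peaks covered 110 and 108 kb of its window with GFP and 187 and 163 kb with SMARCB1. Both SMARCB1 libraries lay above both GFP libraries, the lower one by 52.8 kb. The mean rose from 109 ± 1.80 kb to 175 ± 16.6 kb (SD, n = 2 each), a ratio of 1.60. The log2 difference in limma was 0.67 (SE 0.13, adjusted p = 0.000906), with 65.0% of tested tiles below it. Without GFP replicate 2 the adjusted p was 0.0654, and after median centring the log2 difference was 0.03 (adjusted p = 0.851), so this call does not hold in either.

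The IGF1R window gained coverage mainly at its far end. The widest shared region, chr15:99395756-99424955, was covered over 28739 and 28721 bp with GFP and over 28945 and 28132 bp with SMARCB1. Right beside it, the bin from 99430001 to 99440000 was covered over 2079 and 826 bp with GFP and over 9871 and 9711 bp with SMARCB1 (limma adjusted p = 0.0296). The gained region ranked first by the lower of its SMARCB1 folds was chr15:99456496-99459397. It had folds of 5.57 and 5.53 and lay 2268 bp from the nearest GFP peak. Across the window 15 of 37 tested bins were called higher and 2 lower, set against 29.8% and 7.9% of bins over the genome, and 23 of 175 merged regions (13.1%) were gained, a share below that of the genome. The longest run of bins with peaks in both libraries was 80 kb with GFP and 190 kb with SMARCB1. After median centring 13 bins were called higher and 8 lower, beside 29.1% and 30.1% of the genome's bins. Bins called higher numbered 8 of 34 with equal lists and 6 of 31 with the stricter q, where the genome's shares were 22.1% and 23.9%. They were fewer whichever library was left out, most so without either SMARCB1 library, and the genome's share also fell each time. Gained regions numbered 85 of 172 and 84 of 165 without SMARCB1 replicate 1 or 2, settings in which 41.5% and 47.7% of the genome's regions were gained.

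A smaller stretch of the IGF1R window lost acetylation. The bin from 99130001 to 99140000 was covered over 2462 and 2176 bp with GFP and over 324 and 200 bp with SMARCB1 (limma adjusted p = 0.00833). It holds the lost region with the highest fold, chr15:99133872-99135090, with folds of 7.44 and 4.18 in the GFP libraries. The next bin, from 99140001, was also called lower, with 6610 and 5824 bp against 3543 and 3997 bp (adjusted p = 0.0232). This window carried the most super-enhancer marks of the 8, with 3 and 4 in the GFP tables and 4 and 4 in the SMARCB1 tables. That ranking is limited, since most FGFR1 peaks were left unjoined by the authors. A marked region of 40.2 to 41.3 kb was present in all 4 tables, beginning between 99123590 and 99123946.

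FGFR2 encodes a receptor for fibroblast growth factors. Its window was the most covered of the 8 in every library, at 49.5% and 50.8% with GFP and 66.2% and 61.6% with SMARCB1. Covered lengths were 198 and 203 kb with GFP and 265 and 247 kb with SMARCB1, with no overlap between the groups. The mean rose from 200.5 ± 3.69 kb to 256 ± 12.9 kb (SD, n = 2 each), a ratio of 1.28. The log2 difference in limma was 0.35 (SE 0.09, adjusted p = 0.00604), which 50.6% of tested tiles fell below, so it was close to the median of the genome with the full lists. With equal lists 61.7% of tested tiles fell below it, and with the stricter q 62.1%. The call was lost whichever library was left out, with adjusted p from 0.0544 to 0.221, and centring turned the difference to -0.29 (adjusted p = 0.0601).

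The core of the FGFR2 window was almost wholly covered in both groups. The widest region shared by all 4 libraries among the 8 windows, chr10:123434481-123477057, was 42577 bp long and was covered over 41207 and 42339 bp with GFP and over 40691 and 40586 bp with SMARCB1. It held the highest peak of the window in every library, with folds of 32.3, 21.5, 20.3 and 17.8, among the top 0.187%, 0.0616%, 0.0845% and 0.157% of their lists. The differences lay at the edges and in the middle. The bin from 123170001 to 123180000 was at 0 bp in both GFP libraries and at 3545 and 2658 bp in the SMARCB1 libraries (limma adjusted p = 0.00201). It holds the gained region chr10:123178298-123179461, with folds of 7.08 and 6.55, which lay 12983 bp from the nearest GFP peak. From 123240001 to 123320000 all 8 bins were called higher, for example 1760 and 1589 bp with GFP against 5758 and 5010 bp with SMARCB1 in the last of them. The bin from 123530001 to 123540000 went from 1008 and 1191 bp to 9271 and 8134 bp (adjusted p = 0.00248). In all, 14 of 37 tested bins were called higher and 1 lower, beside 29.8% and 7.9% of the genome's bins. After median centring 9 were higher and 14 lower, beside 29.1% and 30.1% of the genome's bins. Leaving out either SMARCB1 library left fewer called higher, as it did over the genome. The authors marked 1 and 1 stitched regions with GFP and 2 and 3 with SMARCB1, and marks were more frequent with SMARCB1 in the whole tables too. A region of 71.3 and 70.3 kb that began at 123524501 and 123523596 and ran past the window carried the mark with SMARCB1 in both tables and had no marked counterpart with GFP.

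**Figure D3:**
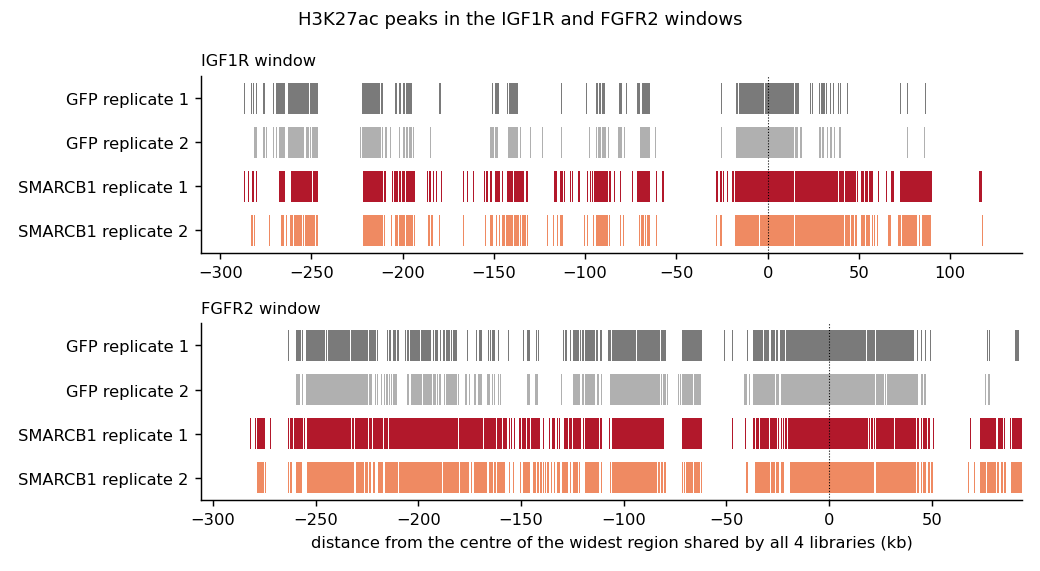
Peaks of each library (rows, bars to scale) in the IGF1R and FGFR2 windows against the distance in kb from the centre of the widest region shared by all 4 libraries (dotted line). The shared region is covered in all rows, and the SMARCB1 rows fill gaps on either side of it in both windows.

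FGFR1, which encodes another fibroblast growth factor receptor, and PDGFRB, which encodes the beta receptor for platelet-derived growth factors, differed little. FGFR1 was covered over 84.9 and 81.9 kb with GFP and over 94.6 and 93.0 kb with SMARCB1, a ratio of 1.13. In limma its log2 difference was 0.17 (SE 0.10, adjusted p = 0.171). PDGFRB was covered over 41.6 and 42.6 kb with GFP and over 50.1 and 46.0 kb with SMARCB1, a ratio of 1.14. Its log2 difference was 0.19 (SE 0.13, adjusted p = 0.263). The groups did not overlap in either window, neither difference passed the test, and both lay below the median of all tiles with the full lists. With equal lists 51.7% of tested tiles lay below FGFR1 and 51.7% below PDGFRB. With the stricter q the shares were 53.9% and 50.7%. After median centring both were called lower, at -0.47 (adjusted p = 0.00456) for FGFR1 and -0.46 (adjusted p = 0.00285) for PDGFRB, so their direction depends on the scaling.

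These windows were densely acetylated in both conditions. The highest FGFR1 peaks, with folds of 34.0, 19.0, 19.3 and 19.4, were among the top 0.110%, 0.308%, 0.165% and 0.0531% of their lists. Its widest shared region, chr8:38248941-38273954, was covered over 24421 and 24274 bp with GFP and over 22194 and 22465 bp with SMARCB1. The bin from 38250001 to 38260000, which lies in that region, was called lower (limma adjusted p = 0.0306). It was covered over 9854 and 9686 bp with GFP and over 8127 and 8620 bp with SMARCB1. Of 14 tested FGFR1 bins, 4 were called higher and 1 lower, beside 29.8% and 7.9% of the genome's bins. Leaving out either SMARCB1 library left fewer FGFR1 bins called higher, as it did over the genome. The highest PDGFRB peaks had folds of 25.1, 14.8, 17.5 and 14.7, and the widest shared region, chr5:149509776-149536542, was covered over 24354 and 24317 bp with GFP and over 26478 and 26377 bp with SMARCB1. PDGFRB had 10 of 21 regions (47.6%) in all 4 libraries, against 16.7% over the genome. Of the 21 regions, 4 (19.0%) were gained and 0 lost, beside 17.5% and 3.94% over the genome. Without SMARCB1 replicate 2, 7 of 20 were gained, beside 47.7% over the genome. In GRCh38 order CSF1R, another receptor tyrosine kinase gene, comes before PDGFRB and CDX1 after it. FGFR1 lies between LETM2 and TACC1. Super-enhancer marks numbered 1, 0, 1 and 1 in the FGFR1 window and 0, 1, 0 and 0 in the PDGFRB window. The authors listed 54, 46, 49 and 50 stitched regions in FGFR1 and 2, 1, 21 and 2 in PDGFRB. Where so many are listed, peaks were mostly not joined. The marks there cannot be set against those of other windows or, in PDGFRB, between libraries.

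KIT and MET, the receptors for stem cell factor and hepatocyte growth factor, had next to no acetylation called. The KIT window held 0 peaks in every library. The MET window held 1 peak in SMARCB1 replicate 1, of 219 bp and a fold of 2.37, and 0 in the other 3 libraries. That fold was near the bottom of its list, where 98.5% of peaks were as high or higher. Neither window passed the filter of 5 bp per kb for the limma fit. Among 12178 genome tiles of 250 kb, 51.4% also had no peak in any list. The tiles were not filtered for assembly gaps or gene-poor stretches, so they are an unlike background for windows placed on genes. A list with no peak says that no acetylation was called at the depth of these libraries. PDGFRA and KIT are neighbours on chromosome 4, and the GFP peaks of the PDGFRA window ended well short of the KIT window, which begins at 55.45 Mb.

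**Figure D4:**
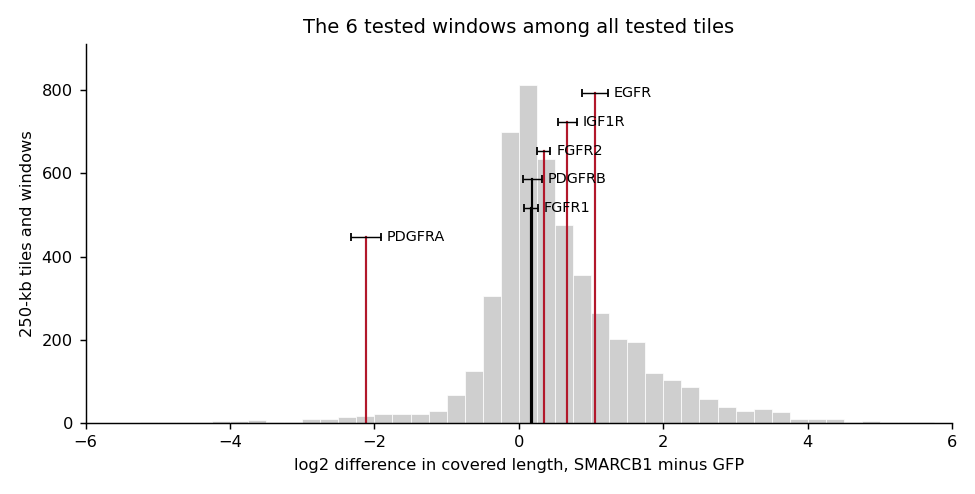
Distribution of the log2 difference in covered length, SMARCB1 minus GFP (x axis), over 4840 tested tiles and windows (grey bars, y axis, number of tiles). Vertical lines mark the 6 tested windows, red where the adjusted p was below 0.05 and black otherwise, and their heights have no meaning; horizontal bars are 1 SE. PDGFRA, at -2.12, lies in the sparse lower tail, and EGFR, at 1.06, lies within the upper shoulder.

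Over all 8 windows 101 of 525 merged regions (19.2%) were gained and 19 (3.62%) were lost, both near the genome's shares of 17.5% and 3.94%. The difference of these shares was not tested. EGFR held 41 of the 101 gained regions, and PDGFRA held 10 of the 19 lost ones. Of 125 tested bins, 50 were called higher and 11 lower by limma, where 29.8% and 7.9% of all tested bins were. Whichever library was left out, fewer of these bins were called higher, and the genome's share fell too. With equal lists the counts were 30 and 15, and after median centring 39 and 39, while the higher share of all calls over the genome went from 79.1% to 64.6% and 49.2%. The Jaccard index, shared over total covered length of a pair of libraries, was in PDGFRA 0.794 between GFP libraries, 0.499 between SMARCB1 libraries and 0.124 to 0.204 across conditions. In EGFR it was 0.666, 0.537 and 0.357 to 0.404, and in PDGFRB 0.795, 0.870 and 0.745 to 0.796.

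**Figure D5:**
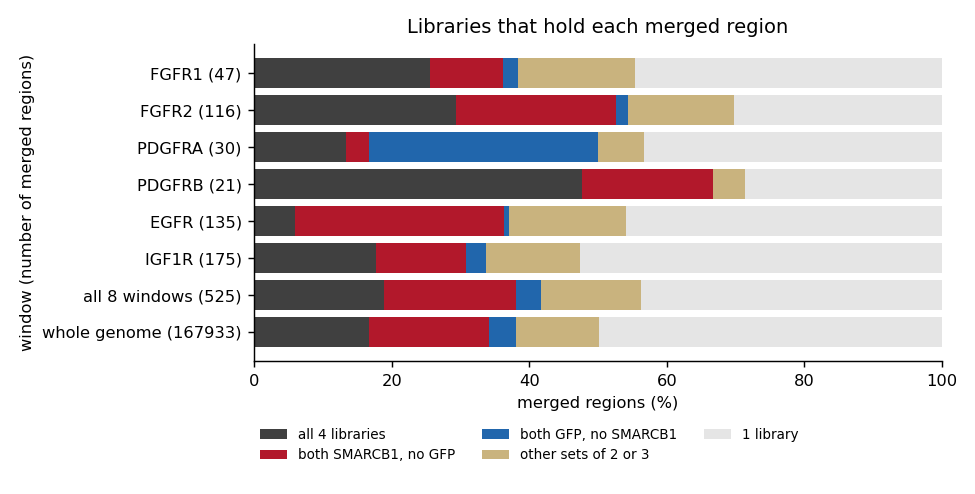
Share of merged regions (x axis, %) by the libraries that hold a peak in them, for each window with more than 1 region, for all 8 windows and for the genome (rows, with the number of regions). PDGFRA has the widest block held by both GFP and no SMARCB1 library (33.3%), EGFR the widest block held by both SMARCB1 and no GFP library (30.4%), and PDGFRB the widest block held by all 4 (47.6%).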

How the data were processed

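H3K27ac peak lists of 4 libraries and 4 tables of stitched regions were used. BWA 0.7.12-r1039, SAMtools and bedtools are named, with no roles, in the submitters' processing notes. The lists' names give MACS2 as the authors' peak caller, 1 call per library, and hg19 as the build; its version and control are not given in the sources used here. Each deposited fold is a ratio of the summit over the background, and the authors also deposited -log10 p and -log10 q per peak. They served only to describe, rank or filter peaks within a list. The super-enhancer marks and the number of peaks joined per stitched region, away from transcription start sites, are the authors', per the file headers of ROSE-type tables. Their 8 signal columns were not used, and 4 of these match no sample by name. Regions that carry the same ID share signal values, so the marks are reported as deposited only.

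From the peaks were computed the covered bp of each window, of genome tiles of 250 kb and of bins of 10 kb, and merged regions (overlap of at least 1 bp). Tiles with a mean of at least 5 bp per kb and bins with at least 20 were fitted with limma 3.58.1 (R 4.3.3, mean trend, log2(bp per kb + 5), Benjamini-Hochberg, 0.05), and windows were fitted among the tiles. Single windows were also tested by exact permutation of the libraries, two-sided. The background in fragments was read from the step between fold values, on which 55.3% to 68.3% of peaks lay within 2% of a step. SMARCB1 replicate 1 needed a scale of 0.855. Alternatives were a pseudocount of 1, no filter, equal lists, a -log10 q of at least 5, median centring, a replicate block, joined peaks within 1 kb, a reciprocal overlap of 50% and each library left out. Named regions were the widest shared region, the gained and lost region with the highest lower fold, and the highest peak of each window, and any called bin. The members, windows and lists were chosen with earlier results of these data known. No hg19 gene models were used here, so peaks were not assigned to promoters or genes, and the planned list of other pathway genes was not analysed here. Gene order, without positions, and promoter sequences are RefSeq's for GRCh38.p14. Depth is not given in the lists, and no interval on reads was computed. Tables were handled in Python 3.11.15 with pandas 2.3.3, and plots were drawn with matplotlib 3.10.9.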

Additional observations from a re-analysis of the deposited data

How the results depend on the processing

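The EGFR window was called higher and the PDGFRA window lower under all 10 alternatives of the limma fit, with log2 differences from 0.42 to 1.19 and from -2.76 to -1.94. Median centring reversed FGFR1 (-0.47), FGFR2 (-0.29) and PDGFRB (-0.46) and gave 1 window higher and 3 lower, and 39 bins lower. The covered length kept its direction in every window with a difference, except that MET went to 0 without its 1 peak. Called windows numbered 2 to 3 when each library was left out, 1 to 2 of them higher and 1 lower. Bins called higher numbered 21 to 32 and bins called lower 4 to 8. Gained regions numbered 118 to 256 and lost regions 27 to 60, since fewer libraries then had to hold or lack a peak. The lone sample of a group was assumed to vary like the others.

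With equal lists 30 bins were higher and 41 regions gained. At a -log10 q of at least 5 these were 26 and 43. Joining peaks within 1 kb left 14 gained and 7 lost regions, and a reciprocal overlap of 50% gave 158 and 100. The cause was not tested. With the replicate number as a block, 3 windows were called higher and 1 lower, and 50 bins higher and 10 lower, so the paired fit changed no window call. The deviations of same-numbered libraries correlated with r = 0.319 over 4840 tiles, but 2 pairs that share only a number do not establish pairing. Depth was not given, and GFP replicate 1 had the lowest background.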
